A study of Mus musculus with 160 samples.

Results

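Notch signalling passes between cells that touch. A ligand of the Delta-like or Jagged family on a sending cell, internalised with the help of the ubiquitin ligase Mib1, pulls on a Notch receptor of its neighbour, and cleavage of that receptor frees an intracellular part that joins the DNA-binding factor Rbpj at target genes of the Hey and Hes families. In the embryonic dorsal aorta the pathway is known for setting arterial identity and for its part in the emergence of blood stem cells from endothelium. The 10 genes described here are its 4 receptors (Notch1, Notch2, Notch3, Notch4), 4 of its ligands (Dll1, Dll4, Jag1, Jag2), Rbpj and Mib1. They were chosen by name as members of the pathway, out of 46078 genes in the count table. Each was followed over 8 sorted populations as CPM. That is its count divided by the pool's total on genes, after the totals were scaled by edgeR's TMM factors.

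The populations came from the aorta-gonads-mesonephros region (AGM) of mouse embryos, the region in which the first blood stem cells arise. All embryos had the genotype Gata3-GFP +/-, a knock-in in which green fluorescent protein reports Gata3, so the GFP- pools carried the reporter allele too and no embryo without it was sequenced. At E10.5, endothelial cells (EC; Cdh5+ CD41- CD45-) and haematopoietic cells (HC; CD41+ CD45+ in the deposited design) were sorted as GFP+ or GFP-. At E11.5, mesenchymal cells (MC; Pdgfrb+) and cells of the sympathetic nervous system (SNS; Ngfr+) were sorted in the same way. Each of the 8 populations was held in 20 pools of 20 cells, made from several embryos, and each pool was 1 Smart-seq2 library. Stage and cell type cannot be told apart between the E10.5 and E11.5 populations.

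Of the 160 pools, 7 failed the limits on read quality, which left 19 Gata3-GFP+ and 20 Gata3-GFP- EC pools, 20 and 20 HC pools, 20 and 17 MC pools and 18 and 19 SNS pools. Passing pools held 1400824 to 16004756 gene counts with a median of 3801233. The labels do not tie pools to biological replicates, and per the methods the cells of a population came from a few biological replicates before they were sorted again into wells. Pools of a population thus share embryos, and every p-value measures the spread between pools, part of which is technical, not that between embryos. In pools of 20 cells, fewer expressing cells and less RNA per cell cannot be told apart. Cdh5, which encodes the sorted endothelial surface protein, was at 755 to 1732 CPM in Gata3-GFP+ EC and 265 to 725 CPM in Gata3-GFP- EC pools, and at most 30.02 CPM in any other population. Itga2b, which encodes CD41, was at 9.48 to 1411 CPM in Gata3-GFP+ HC pools but only at 0.596 to 135.8 CPM, median 8.65, in Gata3-GFP- HC pools. Ptprc, which encodes CD45, had medians of 208 and 429 CPM in the same populations.

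Among the E11.5 libraries, 12 pools went against their labels, the last 3 columns of each population in the deposited table. Whether the labels of these columns were exchanged was not tested. Marker genes of SNS cells, summed, reached 1469 to 1896 CPM in 3 pools labelled Gata3-GFP+ MC and 2421 to 4811 CPM in 3 labelled Gata3-GFP- MC, against 21.9 to 198 CPM in the other MC pools. Conversely, they were at 30.05 to 70.7 CPM in 3 pools labelled Gata3-GFP+ SNS and 117.4 to 145.995 CPM in 3 labelled Gata3-GFP- SNS, against 1174 to 3943 CPM in the other SNS pools. The limit of 1000 CPM was set after the data were seen. The nearest pools lay at 198 CPM below it and at 1174 CPM above it. The genes of the sorted proteins moved in the same way: Pdgfrb was at 0.952 to 12.4 CPM in the 6 MC pools and at 109.7 to 291 CPM in the others, and Ngfr at 0.904 to 7.73 CPM in the 6 SNS pools and at 45.9 to 339 CPM in the others. Gata3 went against the GFP sign of the 12 labels too. It was at 9.96 to 24.3 CPM in the 3 pools labelled Gata3-GFP+ SNS. In the 3 labelled Gata3-GFP- SNS it was at 44.4 to 50.1 CPM. Those labelled MC were at 16.2 to 82.2 CPM (Gata3-GFP+) and 122.6 to 395 CPM (Gata3-GFP-). Jag1, Notch2 and Notch3 stood apart in the 12 pools as well, in each E11.5 population. The ranges of Notch1, Notch4, Rbpj and Mib1 overlapped with those of the other pools of the same label. Jag1 was at 2.06 to 41.3 CPM in the 3 pools labelled Gata3-GFP- MC and at 69.7 to 223 CPM in the other 14, and at 231 to 527 CPM in the 3 labelled Gata3-GFP- SNS and at 31.01 to 110.1 CPM in the other 16. Pools were kept under their labels, and the MC and SNS comparisons are given with all pools and without these 12.

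**Figure D1:**
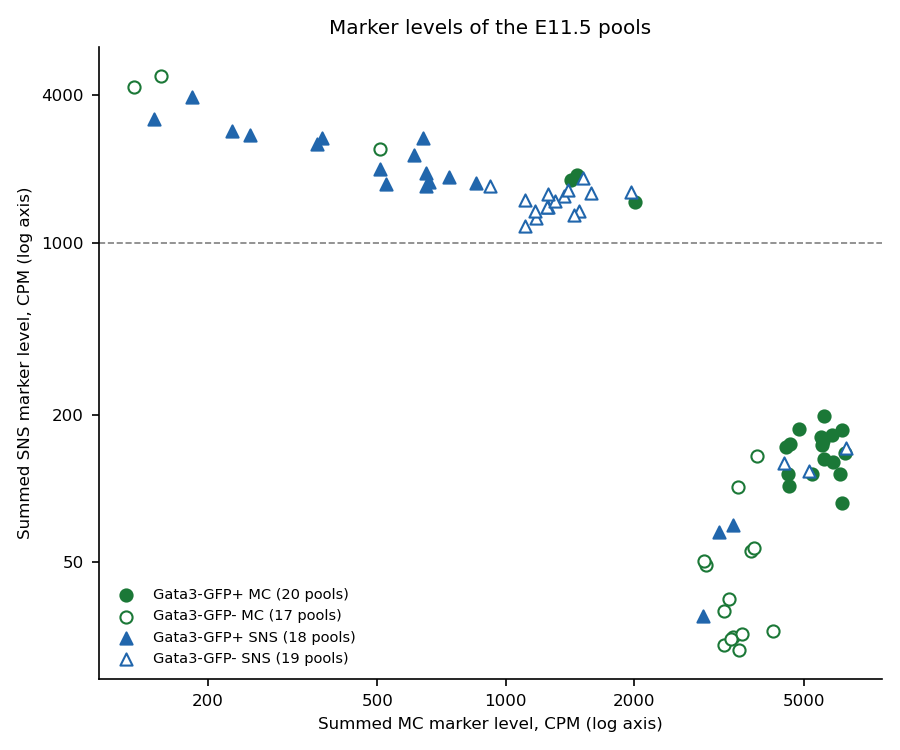
Summed CPM of the MC markers (x, log axis) against summed CPM of the SNS markers (y, log axis) in each E11.5 pool, with 1 symbol per population as labelled. The dashed line is at 1000 CPM; 6 pools labelled MC lie above it and 6 labelled SNS below it.

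The promoters of these genes are shown first, since Rbpj and the Hey and Hes repressors act at DNA. RefSeq starts on GRCm38.p6 gave 11 windows of 250 bases before the start for 9 of the 10 genes. They were searched on both strands for TGGGAA, the core bound by Rbpj, for CACGCG, a site of the Hey and Hes family, for CACGTG, an E-box that the same family can bind, and for AGATAA and TGATAA, 2 forms of the GATA site. Across 32851 promoters these words occurred in 21.6%, 7.62%, 6.02%, 9.99% and 7.94%. Jag1 (chr2:137116521-137116770, minus strand) and Dll4 (chr2:119325534-119325783, plus strand), the most abundant ligands in endothelium, are shown with CACGCG or its reverse complement in capitals, and Rbpj (chr5:53590096-53590345, plus strand) with TGGGAA or its reverse complement in capitals:
Jag1: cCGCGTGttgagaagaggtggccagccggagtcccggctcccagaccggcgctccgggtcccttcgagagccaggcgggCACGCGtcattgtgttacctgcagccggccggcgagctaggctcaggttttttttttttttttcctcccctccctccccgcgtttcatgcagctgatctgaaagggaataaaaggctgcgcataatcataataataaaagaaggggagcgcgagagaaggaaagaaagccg
Dll4: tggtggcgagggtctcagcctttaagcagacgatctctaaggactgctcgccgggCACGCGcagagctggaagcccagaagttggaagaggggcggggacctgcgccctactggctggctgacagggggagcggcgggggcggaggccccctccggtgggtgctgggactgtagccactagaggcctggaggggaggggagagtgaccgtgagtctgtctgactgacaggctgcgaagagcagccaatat
Rbpj: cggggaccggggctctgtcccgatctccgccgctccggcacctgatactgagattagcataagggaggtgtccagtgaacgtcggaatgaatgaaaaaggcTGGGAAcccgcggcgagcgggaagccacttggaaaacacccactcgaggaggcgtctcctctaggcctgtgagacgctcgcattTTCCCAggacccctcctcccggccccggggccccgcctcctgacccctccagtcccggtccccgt

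The Jag1 window held CACGCG at 249 and 171 bases before the start, and the Dll4 window held it once, at 195 bases. The Rbpj window held TGGGAA at 2 places, the nearer at 65 bases. CACGCG also occurred once in the Notch2 window and once in 1 of the 2 Dll1 windows. The windows of Notch1, Notch3, Notch4 and Jag2 held none of the 5 words, and no member's window held a GATA word or CACGTG. The Dll4, Jag1 and Rbpj windows had 65.6%, 57.2% and 65.2% GC, against a median of 52.4% over all promoters.

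Endothelial cells at E10.5 had the most calls of the cell types, among these genes and also over all genes. In Gata3-GFP+ EC, 6 of the 10 genes were higher than in Gata3-GFP- EC and none was lower, by edgeR's quasi-likelihood test at an adjusted p under 0.01 (Benjamini-Hochberg over all 15073 genes tested) and a log2 fold change beyond 0.1. Of all genes tested, 36% passed, 19.5% higher and 16.5% lower. Of the 4 receptors 3 rose, and of the 4 ligands 3, whereas Rbpj and Mib1 did not pass. The median log2 fold change was 1.46 over the 10 genes and 0.0996 over all genes. Gata3 itself was at 78.6 ± 29.95 CPM (SD, n = 19) and 12.2 ± 6.89 CPM (SD, n = 20).

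Jag1, the Jagged ligand best known from arteries and their smooth muscle, had the largest change (chr2:137081456-137116644, minus strand; all gene coordinates are GENCODE M21 on GRCm38/mm10). Its lowest, median and highest pools were 508, 756 and 1067 CPM in Gata3-GFP+ EC and 23.4, 49.4 and 115.4 CPM in Gata3-GFP- EC. Every GFP+ pool thus lay above every GFP- pool, with a log2 fold change of 3.71 ± 0.17 (SE; adjusted p = 1.86e-21, edgeR).

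Dll4, the Delta-like ligand of arterial and sprouting endothelium (chr2:119325784-119335962, plus strand), was at 106.98, 177 and 282 CPM against 2.67, 27.03 and 85.8 CPM. These pools did not overlap either, and the log2 fold change was 2.50 ± 0.22 (adjusted p = 1.68e-12, edgeR). Jag2, the second Jagged ligand (chr12:112907819-112929776, minus strand), was lower throughout, at 20.9, 53.7 and 74.99 CPM against 1.404, 8.57 and 19.7 CPM, again with no overlap. It rose by 2.54 ± 0.22 (adjusted p = 6.29e-13, edgeR). Dll1, a Delta-like ligand best known from somites and neural tissue (chr17:15367354-15376872, minus strand), was scarce and overlapped widely, at 8.22 ± 9.67 CPM and 9.05 ± 5.36 CPM (adjusted p = 0.74).

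Among the receptors, Notch3, usually a receptor of mural cells (chr17:32120820-32166852, minus strand), had the largest difference. It was at 33.7, 68.2 and 108.8 CPM in Gata3-GFP+ EC against 0.825, 6.44 and 13.9 CPM, with no overlap. Its log2 fold change was 3.29 ± 0.21 (adjusted p = 1.17e-16, edgeR). Notch1, the main receptor for blood stem cell emergence (chr2:26457903-26516663, minus strand), was at 145.7, 222 and 307 CPM against 48.7, 79.4 and 131.1 CPM. Those pools were separate too, at 1.46 ± 0.11 (adjusted p = 1.14e-14, edgeR). Notch4, the receptor largely restricted to endothelium (chr17:34564268-34588503, plus strand), rose by 1.45 ± 0.14 (adjusted p = 8.74e-12, edgeR). It was at 109.1, 181 and 296 CPM against 28.5, 60.6 and 161.2 CPM, and here the groups overlapped. Without overlap were 5 of the 10 genes, against 3.03% of all genes tested.

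The remaining genes gave no call in endothelium. Notch2 (chr3:98013527-98150361, plus strand) was at 21.8 ± 10.8 and 17.9 ± 9.42 CPM (log2 fold change 0.26 ± 0.24). Rbpj, the DNA-binding partner of all 4 receptors (chr5:53466152-53657362, plus strand), was at 28.3 ± 8.13 and 25.95 ± 8.45 CPM (0.09 ± 0.15). Mib1 was at 176 ± 32.5 and 150.5 ± 36.5 CPM (0.19 ± 0.10). Adjusted p-values were 0.396, 0.647 and 0.123 in edgeR. Scaled to the ERCC spike-in RNAs, of which GFP+ pools held more beside their gene counts (median 1.67% of the counts against 0.95%), the median of all genes moved down by 0.70 on the log2 scale and these 3 genes took the opposite sign, whereas the 6 called genes stayed higher and past the threshold. That scaling also turned the split of all calls from 54.1% higher to 14.3% higher.

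**Figure D2:**
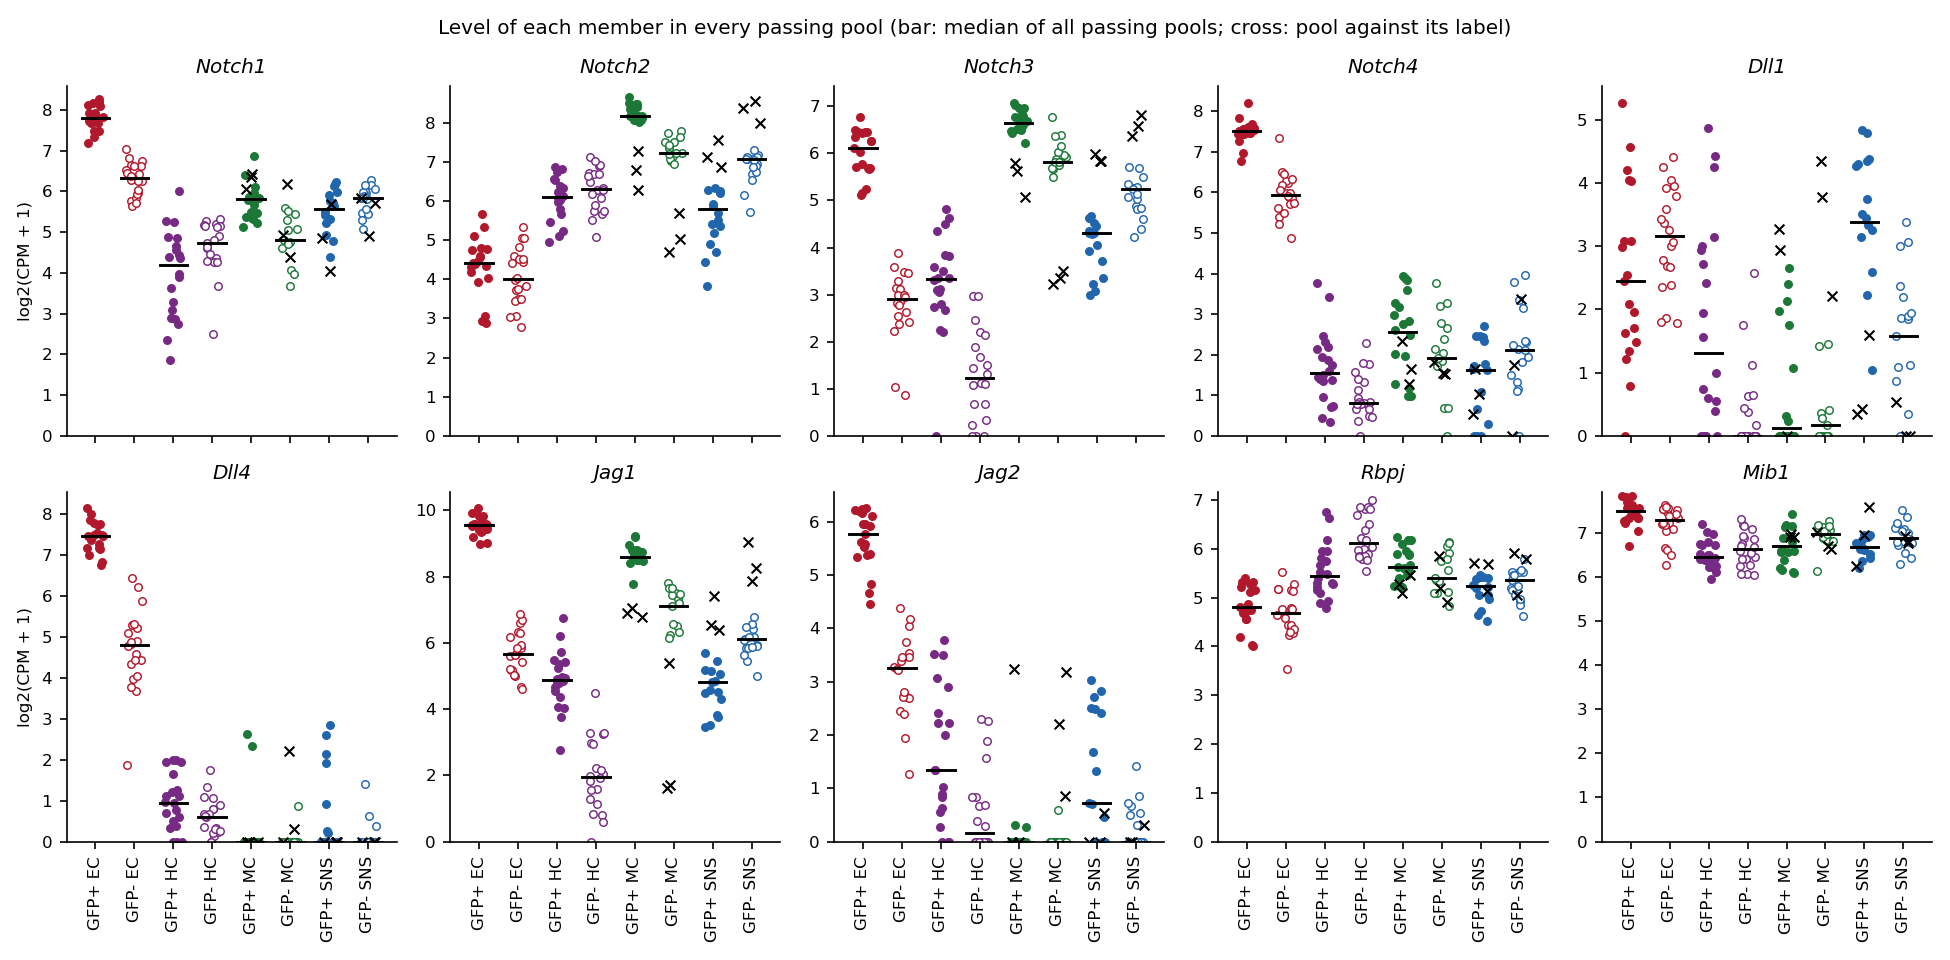
Level of each gene, log2(CPM + 1), in every passing pool of the 8 populations; the bar is the median, filled points are Gata3-GFP+ pools, open points Gata3-GFP- pools, and crosses the 12 pools against their labels. Jag1, Dll4, Jag2, Notch1 and Notch3 separate the 2 EC groups, while Rbpj and Mib1 overlap between them.

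Markers of other cells also differed between the EC groups. The endothelial markers themselves summed to 9957 to 13565 CPM in Gata3-GFP+ EC and 5803 to 8171 CPM in Gata3-GFP- EC, and 11 of 12 were higher. Mesenchymal markers summed to 26.2 to 1653 CPM against 3.87 to 72.1 CPM, with all 8 tested of 10 higher, and the second highest pool was at 308 CPM. Markers of SNS cells summed to 331 to 831 CPM, median 463, against 25.2 to 148.7 CPM, median 46.1, and haematopoietic markers to 179 to 499 against 52.3 to 175 CPM, neither with overlap. Markers of epithelium and mesonephros summed to 22.3 to 124.3 CPM against 0.349 to 8.88 CPM. Without the pool of 1653 CPM the same 6 genes were called, against 35.5% of all genes tested, with Jag1 at 3.70 and Notch3 at 3.25 on the log2 scale. Over the 19 Gata3-GFP+ EC pools the mesenchymal sum had a Pearson r of 0.33 with Notch3, 0.05 with Jag1 and -0.37 with Dll4. For Notch1, Notch4 and Jag2 r was -0.10, -0.44 and 0.16. Over the 20 Gata3-GFP- EC pools r was -0.08, 0.44, -0.11, 0.03, 0.17 and -0.23 for the 6 genes in the same order. The part of these marker RNAs in the levels was otherwise not tested.

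Of 50 other genes of the pathway in 6 lists, 44 were tested in endothelium, 23 were higher and 2 lower, with a median log2 fold change of 0.61. All genes tested, of which 36% passed and 19.5% were higher, are the measure for the list counts that follow. Among the target genes, 5 of 6 tested rose: Hey2 by 5.65 ± 0.31 (the lowest adjusted p, 9.2e-19, edgeR), Heyl by 5.59 ± 0.79, Hey1 by 2.92 ± 0.25, Nrarp by 1.43 ± 0.39 and Hes6 by 0.57 ± 0.17. Hes1 was at -0.49 ± 0.19 and did not pass. Of the 10 genes of receptor cleavage 7 rose, led by Furin, the protease that matures the receptor in the Golgi (1.89 ± 0.14, adjusted p = 4.15e-15, edgeR). In the list of coactivators and corepressors 5 of 13 rose and 2 fell, with Ep300, an acetyltransferase recruited to Rbpj complexes, at 0.96 ± 0.13. Endocytosis and turnover gave 3 of 9, led by Neurl3 (2.25 ± 0.33), the fringe and O-glycosylation genes 2 of 5, led by Mfng (0.52 ± 0.12), and the noncanonical ligands Dlk1 alone (2.40 ± 0.70). All 10 arterial markers were higher and 4 of 5 venous markers lower, with Nrp1 (2.36 ± 0.12) and Nrp2 (-4.09 ± 0.38) at the lowest p of each list.

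In haematopoietic cells the levels of the ligands were far lower, and the difference between Gata3-GFP+ and Gata3-GFP- pools was of another make-up. Of the 9 genes tested, Jag1, Notch3, Dll1 and Notch4 were higher, Rbpj was lower, and Dll4 had too few counts to test, at 1.18 ± 1.05 and 0.605 ± 0.582 CPM. Of all 16200 genes tested, 26.6% passed, 17.1% higher and 9.53% lower. Gata3 was at 49.97 ± 31.4 and 6.90 ± 2.97 CPM (SD, n = 20 each). The pools of every member overlapped between the groups, whereas 0.0802% of all genes tested had no overlap.

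Jag1 was at 5.79, 28.2 and 106.8 CPM (lowest, median and highest) in Gata3-GFP+ HC and 0, 2.90 and 21.2 CPM in Gata3-GFP- HC, a log2 fold change of 3.0 ± 0.39 (adjusted p = 9.05e-08, edgeR). Notch3 was at 0, 9.04 and 27.2 CPM against 0, 1.34 and 6.86 CPM, 2.40 ± 0.48 higher (adjusted p = 0.000107, edgeR). Most GFP+ pools lay above the GFP- median for both genes. Dll1 was sparse, absent from 5 of 20 GFP+ pools and 12 of 20 GFP- pools, with means of 5.29 and 0.519 CPM and a log2 fold change of 3.25 ± 0.83 (adjusted p = 0.00168, edgeR). Notch4, at means of 2.95 and 1.13 CPM, passed narrowly (1.36 ± 0.42, adjusted p = 0.00922, edgeR). Its call was lost with scran or ERCC scaling, with no gene filter and in a rerun of the study's test.

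Rbpj was the member that fell in haematopoietic cells. Its pools ran from 26.6 to 107.3 CPM, median 42.6, in Gata3-GFP+ HC and from 45.6 to 126.9 CPM, median 68.2, in Gata3-GFP- HC, a change of -0.66 ± 0.17 (adjusted p = 0.00163, edgeR). Jag2 missed the threshold at 2.12 ± 0.72 (adjusted p = 0.0177, edgeR). Notch1 was at 19.2 ± 14.9 and 25.8 ± 9.19 CPM, Notch2 at 70.2 ± 25.05 and 83.2 ± 30.1 CPM, and Mib1 at 92.5 ± 22.02 and 101.4 ± 27.9 CPM, and none of these 3 passed.

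Mesenchymal markers stood beside these differences in blood cells. Their sum was 19.5 to 1134 CPM, median 408, in Gata3-GFP+ HC and 3.72 to 175 CPM, median 43.2, in Gata3-GFP- HC, with 9 of 10 tested markers higher. Endothelial markers summed to 173 to 768 against 89.1 to 270 CPM, SNS markers to 0.714 to 1842 against 1.19 to 15.2 CPM, and haematopoietic markers to 2290 to 5969 against 5283 to 11007 CPM. Over the 20 Gata3-GFP+ HC pools the mesenchymal sum had a Pearson r of 0.86 with Notch3 and 0.77 with Jag1, but -0.17 with Dll1 and -0.10 with Rbpj. Over the 20 Gata3-GFP- HC pools it had an r of -0.72 with Rbpj, 0.53 with Notch3 and -0.01 with Jag1. The SNS marker sum had an r of 0.53 with Rbpj in the Gata3-GFP+ and 0.10 in the Gata3-GFP- pools. Pools share their depth and totals, so these are descriptions. Without the 10 Gata3-GFP+ pools highest in mesenchymal markers, Jag1 (2.53, adjusted p = 0.000131) and Rbpj (-0.92, adjusted p = 0.000737) still passed, against 14.8% of all genes. Notch3 was then at 1.59 (adjusted p = 0.0507, edgeR) and Dll1 at 2.35 (adjusted p = 0.0435, edgeR). Without the 10 pools highest in endothelial markers, Jag1 (2.76), Notch3 (2.39) and Dll1 (3.87) passed and Rbpj was at -0.47 (adjusted p = 0.0841, edgeR), against 15.8% of all genes.

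**Figure D3:**
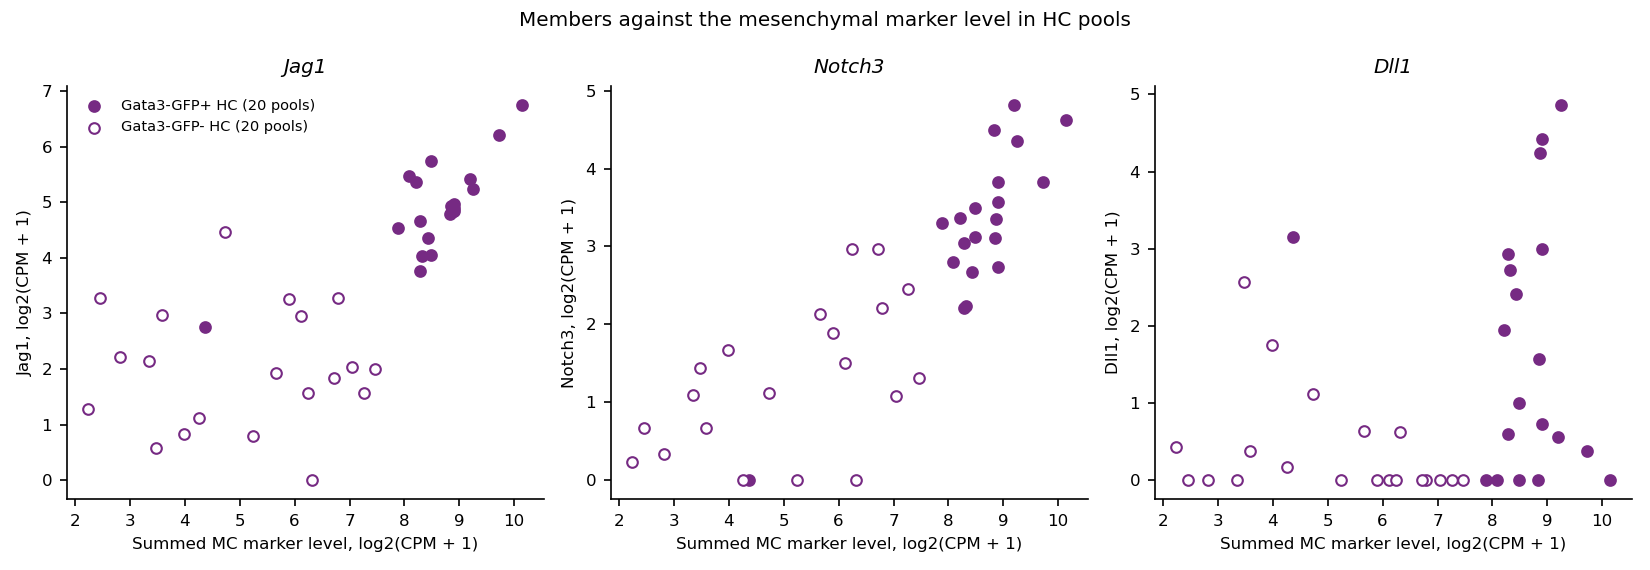
Level of each plotted gene (y, log2(CPM + 1)) against the summed mesenchymal marker level (x, log2(CPM + 1)) in the HC pools, 20 Gata3-GFP+ and 20 Gata3-GFP-. Notch3 and Jag1 were higher in Gata3-GFP+ pools with more mesenchymal marker RNA (r = 0.86 and 0.77).

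Of the other pathway genes 45 were tested in haematopoietic cells, and 10 were higher and 4 lower, beside 26.6% of all genes called. The target genes Hes1 (2.45 ± 0.35, adjusted p = 3.61e-07, edgeR), Hey1 (2.61 ± 0.43) and Hey2 (3.42 ± 0.57) rose, Heyl was at 2.32 ± 0.95 and Hes6 at 0.12 ± 0.18. All 3 noncanonical ligands tested rose, with Dlk1 at 3.52 ± 0.47. No gene of receptor cleavage rose. Mfng fell by 0.72 on the log2 scale and no other fringe or O-glycosylation gene passed. Endocytosis and turnover gave 1 higher (Epn2, 1.55 ± 0.40) and 1 lower of 9, and the coactivators and corepressors 3 higher and 1 lower of 13, with Tle1 at 1.55 ± 0.31. Arterial markers were higher in 4 of 9 and venous markers in 2 of 5, led by Unc5b (3.91 ± 0.41) and Nr2f2 (3.63 ± 0.43).

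Tested against each other, the Gata3-GFP differences of endothelium and blood were unequal for 3 of the 10 genes, against 22.1% of all genes, 8.13% with a positive and 13.9% with a negative difference. Notch1 rose with Gata3-GFP in EC and not in HC, a difference of 1.91 ± 0.27 on the log2 scale (adjusted p = 3.95e-09, edgeR). Rbpj differed by 0.79 ± 0.20 (adjusted p = 0.000792) and Dll1, called in HC and not in EC, by -3.37 ± 0.98 (adjusted p = 0.00404). Without the 10 Gata3-GFP+ HC pools highest in mesenchymal markers, Dll1 was at -2.50 (adjusted p = 0.0565, edgeR) and Notch3 passed at 1.71 (adjusted p = 0.00471, edgeR), against 18.2% of all genes. Under ERCC scaling Rbpj was at 0.22 and no longer passed. Leaving out the 12 E11.5 pools from the shared fit kept the 3 calls, against 23.9% of all genes.

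In mesenchyme, Jag1 and 2 of the receptors were higher in Gata3-GFP+ pools. With all pools, Jag1, Notch2 and Notch1 rose among 8 genes tested, against 4.36% of all genes, 2.21% higher and 2.15% lower. Without the 12 pools Notch3 passed as well, against 10.4% of all genes. Gata3 followed its label only without them, at 36.5 ± 12.05 CPM (n = 17) and 9.93 ± 4.36 CPM (n = 14); with all pools it was at 37.6 ± 15.9 and 59.4 ± 121.7 CPM, the 3 pools labelled Gata3-GFP- MC and rich in SNS markers lying at 122.6 to 395 CPM.

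Marker sums moved with these differences. The MC markers, without the 12 pools, summed to 4522 to 6230 CPM in Gata3-GFP+ MC and 2916 to 4227 CPM in Gata3-GFP- MC, with no overlap, and the SNS markers had medians of 147.7 and 33.5 CPM. Over the 17 Gata3-GFP+ MC pools the MC marker sum had a Pearson r of 0.50 with Notch2, 0.12 with Jag1, 0.19 with Notch1 and -0.12 with Notch3. Over the 14 Gata3-GFP- MC pools r was 0.40, 0.43, -0.04 and 0.31 for the same genes. The part of the marker RNAs in the result was not otherwise tested.

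Notch2, a receptor of mesenchyme and of many other tissues, was at 76.8, 288 and 400 CPM in Gata3-GFP+ MC and at 25.1, 148.2 and 221 CPM in Gata3-GFP- MC, a log2 fold change of 0.97 ± 0.21 (adjusted p = 0.00246, edgeR). Without the 12 pools it was at 259 to 400 CPM and 123.1 to 221 CPM, 0.91 ± 0.08 (adjusted p = 6.53e-10, edgeR). The groups then did not overlap, as for 0.552% of all genes. Jag1 was at 108.9, 389 and 600 CPM against 2.06, 136.5 and 223 CPM, 1.61 ± 0.34 (adjusted p = 0.00166, edgeR). Without the 12 pools Jag1 was at 417 ± 90.9 and 143.4 ± 52.9 CPM, 1.53 ± 0.16 (adjusted p = 9.22e-09, edgeR), and the groups met only at their edges, at 219 and 223 CPM.

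Notch1 was at 58.3 ± 20.6 and 31.2 ± 14.7 CPM, 0.89 ± 0.19 (adjusted p = 0.00136, edgeR), and at 0.91 ± 0.19 without the 12 pools. With ERCC scaling and all pools Notch1 was at 0.83 and did not pass (adjusted p = 0.0277, edgeR). Notch3 was at 95.2 ± 26.8 and 54.3 ± 26.4 CPM, 0.80 ± 0.23 (adjusted p = 0.0227, edgeR), and at 0.70 ± 0.11 without them (adjusted p = 8.5e-06, edgeR). The groups overlapped for both. Notch4, Dll1, Rbpj and Mib1 did not pass either way, and Dll4 and Jag2 were too scarce to test. Of the other pathway genes 5 of 45 were higher and none lower, beside 4.36% of all genes called, and 8 of 43 without the 12 pools, beside 10.4%, which include the target genes Heyl (1.75 ± 0.20, then 1.85 ± 0.16) and Hey2 (1.83 ± 0.44, then 1.81 ± 0.19) and the gamma-secretase subunit Ncstn (0.70 ± 0.11, then 0.83 ± 0.11).

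In the sympathetic pools Notch2 and Jag1 were lower in Gata3-GFP+ SNS, 2 of 9 genes tested, against 3.87% of all genes, 2.01% higher and 1.86% lower. At an adjusted p under 0.05, 5 of the 9 passed, against 8.26% of all genes. Without the 12 pools and at the stricter threshold, Notch3 was lower as well and Dll1 and Jag2 were higher, 5 of 9 genes against 10.4%. Gata3 was at 160.5 ± 87.9 and 44.6 ± 21.8 CPM. The MC markers moved with these differences: without the 12 pools they summed to 149.5 to 853 CPM in Gata3-GFP+ SNS and 920 to 1964 CPM in Gata3-GFP- SNS. Over the 15 Gata3-GFP+ SNS pools without the 12, their sum had a Pearson r of 0.84 with Notch2, 0.78 with Jag1, 0.59 with Notch3, -0.48 with Dll1 and -0.52 with Jag2. Over the 16 Gata3-GFP- SNS pools r was -0.11, 0.58, 0.52, -0.19 and -0.11 for the same genes. Their part in the result was not otherwise tested.

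Notch2 was at 13.1, 54.2 and 188 CPM in Gata3-GFP+ SNS and 51.8, 133.6 and 374 CPM in Gata3-GFP- SNS, -1.21 ± 0.27 (adjusted p = 0.00269, edgeR). Jag1 was at 9.94, 27.5 and 171 CPM against 31.01, 67.97 and 527 CPM, -1.48 ± 0.38 (adjusted p = 0.00911, edgeR), a call lost without a gene filter or with the stricter one. Both genes overlapped between the groups, also without the 12 pools, when 0.46% of all genes had no overlap and Notch2 was at -1.30 ± 0.20 (adjusted p = 8.52e-06, edgeR) and Jag1 at -1.4 ± 0.20 (adjusted p = 4.56e-06, edgeR).

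Notch3 was at 23.04 ± 17.1 and 43.6 ± 25.5 CPM, -0.93 (adjusted p = 0.0283, edgeR), and at -1.08 ± 0.18 without the 12 pools (adjusted p = 4.12e-05, edgeR). Dll1, known from neural crest and nerve progenitors, had its highest mean of all populations here, at 11.2 ± 8.76 against 2.54 ± 2.77 CPM, 2.14 (adjusted p = 0.0118, edgeR), and 2.15 ± 0.47 without the 12 pools (adjusted p = 0.00122, edgeR). That mean was not separated from the next, Gata3-GFP- EC at 9.055 CPM (adjusted p = 0.727, edgeR). Jag2 went from 2.92 (adjusted p = 0.0134, edgeR) to 2.99 ± 0.80 (adjusted p = 0.00705, edgeR), at means of only 2.52 and 0.301 CPM. Notch1, Notch4, Rbpj and Mib1 did not pass either way. ERCC scaling moved the median of all genes up by 0.35, and Notch1, Rbpj and Mib1 then took the opposite sign. It changed the split of calls from 52% to 83.3% higher here, and from 50.7% to 72.4% in mesenchyme. Of the other pathway genes 2 of 45 were higher, Hes6 (1.23 ± 0.31), a Hes family member of neural progenitors, and Dll3 (2.05 ± 0.53), beside 3.87% of all genes called, and 8 of 44 were higher without the 12 pools, beside 10.4%, with none lower.

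**Figure D4:**
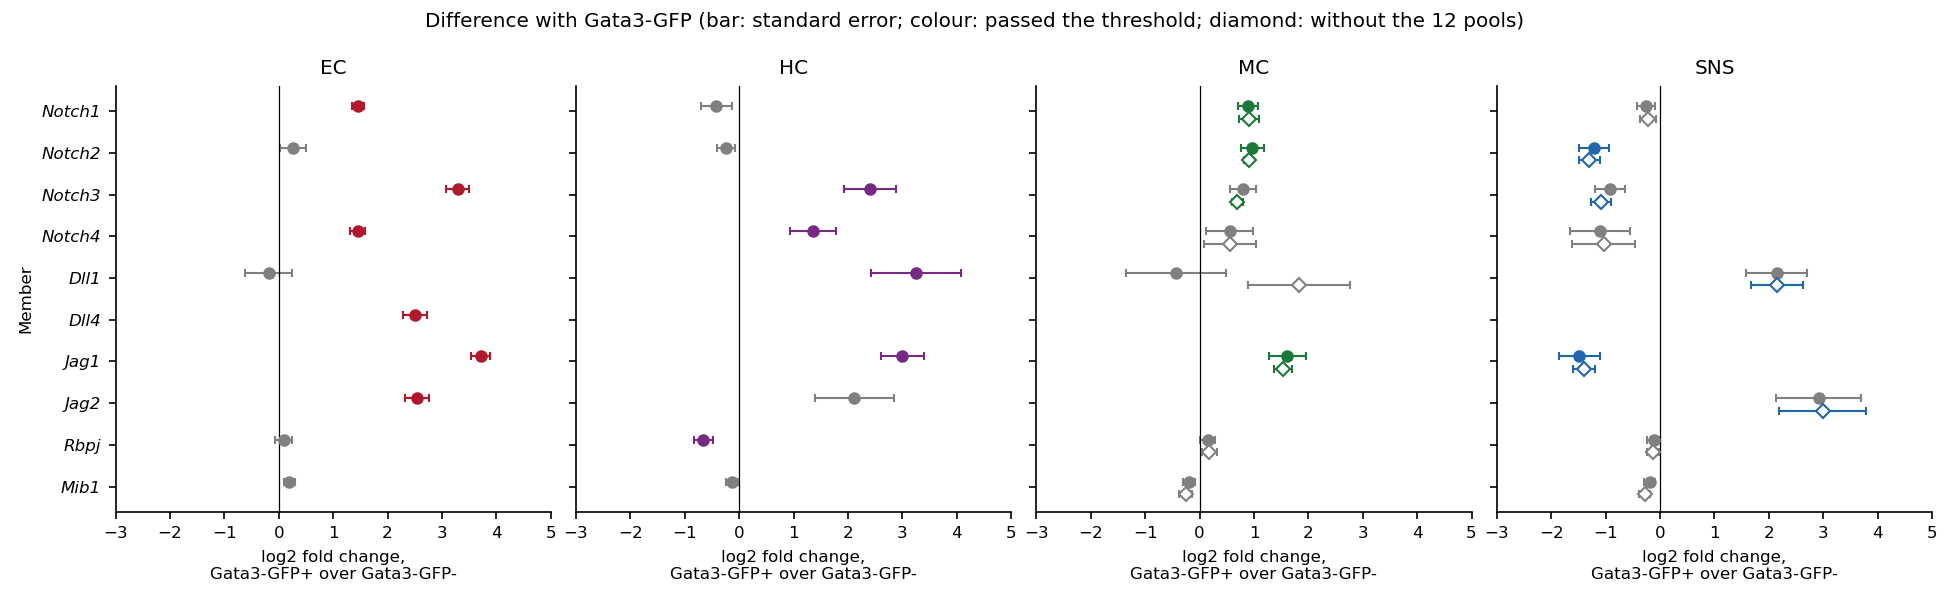
log2 fold change of each gene, Gata3-GFP+ over Gata3-GFP-, in each cell type, with its standard error; coloured symbols passed the threshold, grey ones did not, and diamonds are without the 12 pools. Jag1 lies to the right in EC, HC and MC and to the left in SNS.

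Mesenchymal and sympathetic differences with Gata3-GFP were also tested against each other. Of the 10 genes 5 differed, against 8.9% of all genes, 4.45% with a positive and 4.45% with a negative difference. Jag1 differed by -3.11 ± 0.46 (adjusted p = 5.61e-08, edgeR), Notch2 by -2.20 ± 0.32 (adjusted p = 6.08e-08), Notch3 by -1.74 ± 0.41 (adjusted p = 0.000878) and Notch1 by -1.16 ± 0.28 (adjusted p = 0.00121). Without the 12 pools these 4 remained called, at -2.96, -2.23, -1.80 and -1.16, against 6.33% of all genes. Jag2 differed by 3.91 ± 0.99 with all pools (adjusted p = 0.00225, edgeR) and by 3.29 ± 1.91 without the 12 (adjusted p = 0.298, edgeR). Of its 33 counts in Gata3-GFP+ MC and 62 in Gata3-GFP- MC, 31 and 60 came from the pools against their labels.

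Set against endothelium of the same GFP state, haematopoietic cells had less of nearly every ligand and receptor. In Gata3-GFP+ cells 9 of the 10 genes differed, against 43.9% of all genes, 26.3% higher and 17.6% lower. Notch2 (1.68 ± 0.23) and Rbpj (0.81 ± 0.14) were higher in HC. Dll4 was lower by -7.33 ± 0.55 and Notch4 by -5.98 ± 0.41, followed by Jag1 (-4.46 ± 0.35), Jag2 (-3.94 ± 0.64), Notch1 (-3.55 ± 0.21), Notch3 (-2.63 ± 0.30) and Mib1 (-0.93 ± 0.11). The highest HC pool of Dll4, at 3.002 CPM, lay far under the lowest EC pool, at 106.98 CPM. Groups did not overlap for 6 of the 10 genes, Dll4, Notch4, Jag1, Jag2, Notch1 and Notch3, against 3.55% of all genes. Dll1 did not pass (-0.62 ± 0.66, adjusted p = 0.443, edgeR).

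In Gata3-GFP- cells all 10 genes differed, against 37% of all genes, 18.4% higher and 18.6% lower. Notch2 (2.23 ± 0.23) and Rbpj (1.59 ± 0.14) were again higher in HC, and the Rbpj pools of the groups did not overlap (45.6 to 126.9 CPM against 10.7 to 44.9 CPM). Dll4, Jag1, Notch1 and Notch4 had no overlap either, 5 of 10 genes against 6.83% of all genes. The other 8 were lower, from -5.82 ± 0.54 for Dll4 and -5.75 ± 0.41 for Notch4 to -0.57 ± 0.11 for Mib1. Leaving out the 12 pools from the shared fit kept the call of each gene in both comparisons, against 45.4% and 38.4% of all genes. ERCC scaling moved the median of all genes up by 0.69 in the Gata3-GFP+ comparison and changed the split of calls from 59.9% to 86.1% higher; Mib1 was then at -0.30 and no longer passed.

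SNS and MC pools of the same GFP state were compared in the same fit. In Gata3-GFP+ cells 7 genes differed, against 21.7% of all genes, and the same 7 without the 12 pools, against 30.2%. Dll1 (2.64 ± 0.70, then 3.43 ± 0.70) and Jag2 (2.34 ± 0.67 with all pools) were higher in SNS. Jag2 entered this fit through its level in endothelium. It had, without the 12 pools, 218 counts over the 15 SNS pools and 2 over the 17 MC pools, too few to size the difference. Jag1 (-3.21 ± 0.34, then -4.05 ± 0.27), Notch2 (-2.12 ± 0.23, then -2.71 ± 0.21), Notch3 (-2.05 ± 0.30, then -2.72 ± 0.28), Notch4 (-1.46 ± 0.37, then -1.52 ± 0.39) and Rbpj (-0.49 ± 0.14, then -0.64 ± 0.15) were lower. Jag1, Notch2 and Notch3 had no overlap without the 12 pools, as 6.03% of all genes. ERCC scaling moved the median of all genes up by 0.65 and the split of calls from 51.03% to 87.5% higher, and it turned Rbpj to 0.15. Notch4 then did not pass (-0.73, adjusted p = 0.118, edgeR), while Mib1 (0.64, adjusted p = 0.000381) and Dll4 (1.89, adjusted p = 0.00764) passed as higher. Dll4 had too few counts to be tested within MC or within SNS. Its means were only 1.04 CPM in Gata3-GFP+ SNS and 0.46 CPM in Gata3-GFP+ MC, too low to size the difference.

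In Gata3-GFP- cells 1 gene of the 10 differed with all pools, against 6.29% of all genes, 3.62% higher and 2.67% lower: Notch1 was 0.80 ± 0.20 higher in SNS (adjusted p = 0.00291, edgeR). Without the 12 pools it was 0.95 ± 0.22 higher, Dll1 was 3.17 ± 0.82 higher, and Jag1 (-1.09 ± 0.24) and Notch3 (-0.92 ± 0.27) were lower, 4 genes against 16.9% of all genes. Dll1 was then at means of only 2.99 CPM in SNS and 0.312 CPM in MC, too low to size its difference. Under ERCC scaling the split of calls went from 57.5% to 79.4% higher.

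Ordered over the 8 populations by mean CPM, most neighbours of a gene could not be separated: 16 of 70 neighbouring pairs passed, and 20 of 70 without the 12 pools. The share of such steps that pass over all genes was not computed. Jag1 ran from Gata3-GFP+ EC (750 CPM) to Gata3-GFP+ MC (372 CPM) and Gata3-GFP- MC (120.7 CPM), and both steps passed (adjusted p = 0.00338 and 0.000143, edgeR). Gata3-GFP- SNS (112.3 CPM), Gata3-GFP- EC (56.03), Gata3-GFP+ SNS (40.5), Gata3-GFP+ HC (33.99) and Gata3-GFP- HC (4.39) followed. Jag1 without the 12 pools was at 417 and 143.4 CPM in MC and at 66.9 CPM in Gata3-GFP- SNS, a step that then passed (adjusted p = 0.000189, edgeR), and at 25.5 CPM in Gata3-GFP+ SNS, under Gata3-GFP+ HC. Notch1, Notch4, Dll4 and Jag2 were each highest in Gata3-GFP+ EC and next in Gata3-GFP- EC, with that step called for all 4. Below endothelium Notch4 dropped from 65.4 CPM to 5.78 CPM in Gata3-GFP+ MC and Dll4 from 30.9 CPM to 1.18 CPM in Gata3-GFP+ HC, and both of these steps passed. The next population without the 12 pools was Gata3-GFP+ MC for Notch4 (6.35 CPM) and Gata3-GFP+ SNS for Dll4 (1.24 CPM), and both steps passed again.

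Notch2 and Notch3 were highest in Gata3-GFP+ MC, at 280 and 95.2 CPM. The step down to the second population passed for Notch2 (Gata3-GFP- SNS, 149.7 CPM; adjusted p = 0.00108, edgeR), but not for Notch3 (Gata3-GFP+ EC, 66.8 CPM; adjusted p = 0.12, edgeR). The second population for Notch2 without the 12 pools was Gata3-GFP- MC (164.5 CPM; adjusted p = 0.000275, edgeR), with Gata3-GFP- SNS at 117.9 CPM after it, and the step from Notch3 in Gata3-GFP+ MC (103.95 CPM) to Gata3-GFP+ EC had an adjusted p of 0.0156. Rbpj was highest in Gata3-GFP- HC, at 78.5 CPM, above Gata3-GFP+ MC at 51.6 CPM (adjusted p = 5.18e-05, edgeR). Mib1 spanned only 92.5 to 176 CPM, and neither it nor Dll1 had a step that passed.

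Divided by exon length, levels can be set between genes only roughly. The length was that of the merged exons of all annotated transcripts, 14.2 kb for Notch1 and 8.06 kb for Notch4. The transcripts in these cells can be shorter. Before this division Notch1 was above Notch4 in Gata3-GFP+ EC (227 and 183 CPM) and in Gata3-GFP- EC (80.6 and 65.4 CPM). The 4 receptors summed to 48.9 CPM per kb in Gata3-GFP+ EC and 16.3 in Gata3-GFP- EC, to 9.54 and 9.92 in HC, and, without the 12 pools, to 46.2 and 25.7 in MC and 10.1 and 19.6 in SNS. With all pools the MC and SNS sums were 42.5, 22.5, 12.3 and 23.7. In endothelium Notch4 made up 46.3% of this sum in Gata3-GFP+ and 48.8% in Gata3-GFP- pools, and Notch1 32.6% and 35.4%. Notch3 made up 16.9% against 5.32%. Notch2 led in HC, with 68.8% and 76.5%, and in MC, with 62.1% and 59.2%, where Notch3 came second with 27.8% and 30.8%. SNS pools mixed Notch2 (43.1% and 55.2%) with Notch1 (34.7% and 20.4%) and Notch3 (19.9% and 21.5%). With all pools Notch2 led as well, with 59.9% and 56.6% in MC and 45.7% and 56.8% in SNS.

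The 4 ligands summed to 184.9 CPM per kb in Gata3-GFP+ EC and 21.03 in Gata3-GFP- EC, above the receptor sum in both. Jag1 made up 69.4% and Dll4 25.4% of the sum in Gata3-GFP+ EC. In Gata3-GFP- EC the ligands were more even, with Jag1 at 46.4%, Dll4 at 36% and Dll1 at 11.46%. HC pools had only 7.89 and 1.15 CPM per kb, of which Jag1 made up 72.6% and 60.8%. Jag1 was nearly the sole ligand in MC, at 99.3% in Gata3-GFP+ and 99.7% in Gata3-GFP- pools without the 12. In SNS it shared the sum with Dll1 in Gata3-GFP+ pools (53.5% and 37.3%) and made up 92.7% in Gata3-GFP- pools. With all pools the share of Jag1 was 98.3% and 87.4% in MC and 61.04% and 93.8% in SNS.

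**Figure D5:**
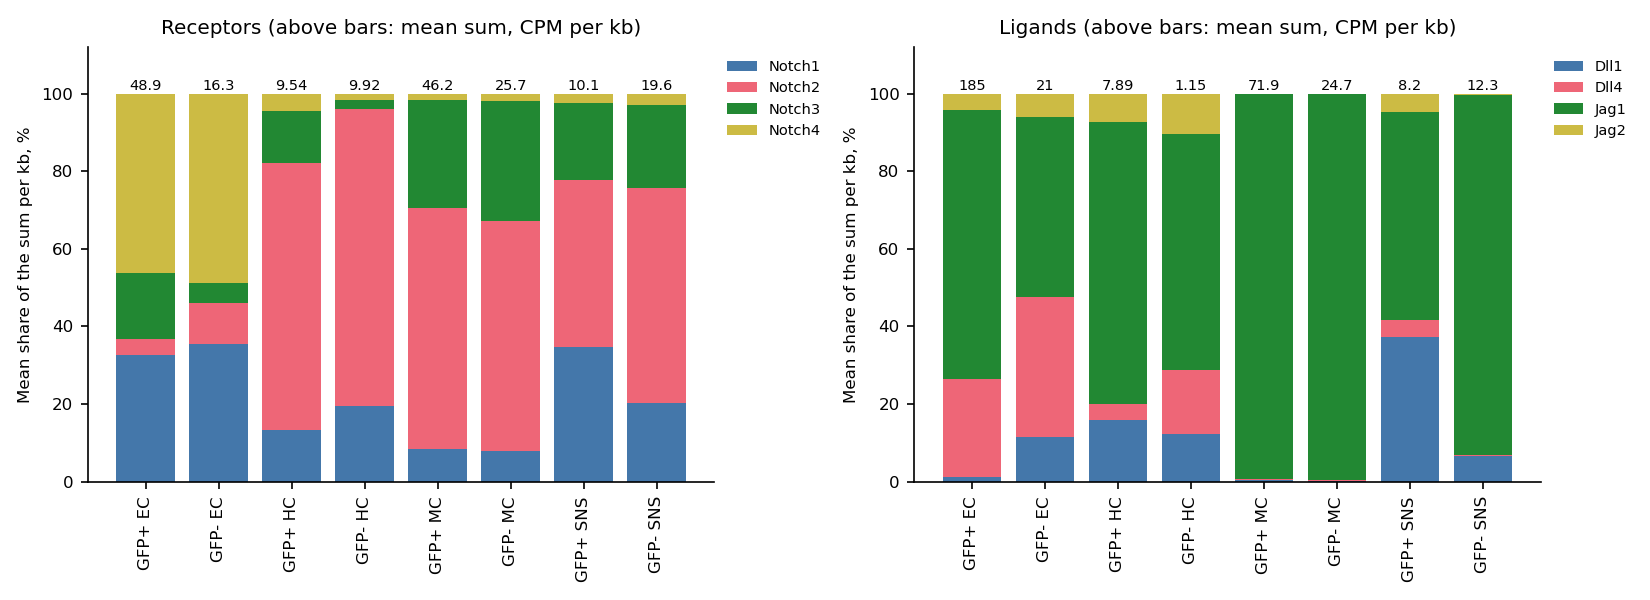
Mean share (%) of each receptor (left) and each ligand (right) in the sum of its group per kb of exon, for each population, with MC and SNS without the 12 pools. Notch4 and Notch1 make up most of the receptor sum in EC and Notch2 in HC and MC, while Jag1 leads the ligands throughout.

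Within populations the members varied little together. With each population's mean removed, the highest Pearson r over all passing pools was 0.60, for Notch3 with Jag1, and it was 0.33 without the 12. Notch2 with Jag1 (0.54) and with Notch3 (0.52) likewise rested on the 12 pools. Among the 20 Gata3-GFP- EC pools Dll4 had an r of 0.59 with Notch4 and 0.48 with Notch1. All values share a library and its depth, so they describe these pools only.

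Across all passing pools, each member was matched with the 20080 other genes tested by Pearson r of log2(CPM + 1). Dll4 was most like Sox17 (0.95) and Sox7 (0.94), both SoxF transcription factors of endothelium. Notch4 was most like She and Myzap (0.90 each). Jag1 was most like Fbn1 (0.94) and Fstl1 (0.92), which encode matrix proteins, and Notch3 like Mfap2 (0.90) and Fbn1 (0.89). Notch2 was most like Crispld2 (0.86), Notch1 like Plec (0.81), Rbpj like Sorl1 (0.69), Dll1 like Kif26a (0.66) and Mib1 like Gm12940 (0.69). Jag2 was most like Gm14207 (0.89), whose exons overlap those of Dll4 on the opposite strand, and like Dll4 itself (0.88). Pools of 1 population share their cell type, so these values largely order populations.

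Some members share exons with other genes, and whether the counting used strand is not given in the sources used here. The lncRNA A930024N18Rik covered 20.6% of the Dll1 exon bases on the opposite strand. Overlaps of Notch1, Notch2, Notch3 and Dll4 with other genes came to between 2.91% and 7.50% of their exon bases. A pseudogene of Rbpj, Rbpj-ps3, held 6014 counts beside 29103 for Rbpj, so the level of Rbpj is uncertain too.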

How the data were processed

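Each library was a pool of 20 sorted cells amplified by Smart-seq2. The authors deposited raw counts per gene, not normalized, for 46078 genes and 92 ERCC RNAs in 160 pools. The methods name STAR with Ensembl 81 and HTSeq, whereas the submitters' processing notes list GSNAP 2015-09-29, HTSeq 0.5.3p3 and mm10. The authors' counting set aside reads on more than 1 gene as ambiguous, a median of 21.4% of all assigned, ambiguous and unassigned reads of a pool, which lowers genes that overlap others. The count columns name the population and no pool number.

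Pools needed 500000 counts, 20% on genes, and at most 20% each on mitochondrial genes and ERCC RNAs. Genes that reached 10 counts in 5 or more of the pools set against each other were tested by edgeR 4.0.16 (R 4.3.3; TMM, robust quasi-likelihood fit), with Benjamini-Hochberg adjustment over all of them. A call needed an adjusted p under 0.01 together with a log2 fold change past 0.1 either way. Gata3-GFP+ and Gata3-GFP- pools were fitted per cell type, and the other comparisons came from 1 fit of 8 populations. Standard errors (SE) were the log2 fold change over the square root of F. CPM used the TMM factors of the fit of 8 populations, also where pools were left out, and carry no pseudocount. The scripts were tested on simulated counts.

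The members and gene lists were chosen with earlier results of these data known. The genes named were the 10 members, Gata3, the 5 sorting markers, the gene with the lowest adjusted p in each other list (1 is not reported here), and those most like each member. Other target genes were named after their values were seen. Alternatives were other scalings (DESeq2 1.42.0, scran 1.30.0, ERCC), gene filters, pool limits, thresholds and fits, the DESeq2 Wald test and a rerun of the study's test (scanpy 1.11.5, overestimated variance, scran scaling). The rerun called 5590 genes in EC and 4573 in HC, more than the study reports. The study's limit on high coverage genes per pool was not applied. Leaving out the 12 pools against their labels, the HC pools highest in MC or EC markers, or 1 EC pool was chosen after seeing the data. Promoters are RefSeq windows on GRCm38.p6.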

Additional observations from a re-analysis of the deposited data

Results flagged for a closer look

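In 8 cases the Gata3-GFP difference of a gene was not the same in 2 cell types of 1 stage, by the test of the difference itself in edgeR. These were 3 of the 10 genes for EC against HC, beside 22.1% of all genes, and 5 of the 10 for SNS against MC, beside 8.9%. Between EC and HC the difference of Notch1 was larger in EC by 1.91 on the log2 scale, that of Rbpj by 0.79, and that of Dll1 was -3.37, which means larger in HC. Between SNS and MC the values were -3.11 for Jag1, -2.20 for Notch2, -1.74 for Notch3 and -1.16 for Notch1, all larger in MC, and 3.91 for Jag2, larger in SNS. Jag1 and Notch2 were higher in Gata3-GFP+ MC and lower in Gata3-GFP+ SNS, whereas Notch3 passed in neither cell type with all pools (adjusted p = 0.0227 and 0.0283, edgeR). Jag2 did not pass without the 12 pools against their labels (3.29) or when only the E11.5 populations were fitted (3.73), and in both SNS populations its mean was under 3 CPM. With ERCC scaling Notch1 (-0.65, SNS against MC) and Rbpj (0.22) did not pass. Dll1 did not pass without the 10 Gata3-GFP+ HC pools highest in mesenchymal markers (-2.50). The cause was not tested in any of these cases.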

How the results depend on the processing

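Across the alternatives 889 values of single members kept their side of the threshold, and their direction too where they had passed. Values that passed neither way count among these even where their sign changed. A further 22 newly passed, 19 no longer passed and 2 reversed. All but 25 counts stayed within 1.5 times the reported value. With ERCC scaling, Rbpj (0.15) and Mib1 (0.64) took the opposite sign in Gata3-GFP+ SNS against MC.

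For the Gata3-GFP comparison in HC, 3 members passed in place of 5 with the stricter gene filter, when 3280 of all genes passed in place of 4307. Without the 10 pools highest in MC markers 2 members passed, and without the 10 highest in EC markers 3. Of all genes, 26.6% passed with all pools, and 14.8% and 15.8% without these pools. In MC, 1 member in place of 3 had a log2 fold change beyond 1, as did 279 of all genes in place of 698. In SNS, where 2 passed, the count was 1 without a gene filter and 4 with ERCC scaling, the DESeq2 Wald test or 1 fit of 8 populations. In these settings 717, 1013, 882 and 678 of all genes passed, in place of 625. The count of members was 5 without the 12 pools or at an adjusted p under 0.05. Of all genes, 3.87% passed with all pools, 10.4% without the 12 and 8.26% at an adjusted p under 0.05. For Gata3-GFP- SNS against MC, where 1 passed in edgeR and in DESeq2, it was 4 without the 12 pools and 0 beyond a log2 fold change of 1 in edgeR. Of all genes, 6.29% passed with all pools and 16.9% without the 12. Among members beyond that fold change Jag2 alone had an unadjusted p under 0.05 in edgeR, while Notch1, the member that passed, lay within it.

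Of all genes, 5424 were called in EC, 4307 in HC, 698 in MC and 625 in SNS. Beyond a log2 fold change of 1 these were 2469, 2457, 279 and 339. Leaving out pools gave 2216 (MC markers) and 2406 (EC markers) in HC and, without the 12, 1585 in MC and 1631 in SNS. ERCC scaling gave 381 in MC and 1013 in SNS, an adjusted p under 0.05 gave 1514 and 1334, and 1 fit of 8 populations gave 1130 in MC. Calls between Gata3-GFP differences shifted in direction too: for EC against HC 36.8% were positive, 47.2% with scran and 8.22% with ERCC scaling, and for SNS against MC ERCC scaling gave 72.8%. The cause was not tested.

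No paired analysis was possible because the labels do not tie pools to biological replicates. The count columns also carry no pool number. Low counts limit Dll1, Jag2 and Dll4, and the last 2 could not be tested in MC. Among members near the threshold, Notch4 and Jag2 in Gata3-GFP+ SNS against MC (-1.47 and 2.24) did not pass when the 4 populations of the stage were fitted alone.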
